A study of Mus musculus with 6 samples.

Results

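ATP-binding cassette (ABC) genes were followed in 6 RNA libraries of C2C12, an established line of mouse myoblasts, all taken at day 0 of differentiation. In 3 libraries the cells overexpressed ChREBP-beta, the short and highly active form of the carbohydrate response element binding protein encoded by Mlxipl, and in the other 3 they expressed the control protein GFP, a green fluorescent marker. The labels state neither how the proteins were introduced nor whether the replicates were grown separately, and p-values therefore reflect a spread among libraries that may be only technical. The family was taken as all symbols of the deposited count table that begin with Abc, a letter from a to g and a digit, which gave 50 genes of 22272 distinct symbols, in 7 subfamilies named A to G.

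ABC proteins bind ATP through paired cassettes, and most use its hydrolysis to move lipids, conjugated metabolites, drugs, peptides or metal cofactors across a membrane. Some cassette proteins move nothing: those of subfamilies E and F act on the ribosome, and the sulphonylurea receptors of subfamily C regulate a potassium channel. In muscle and many other tissues Abca1 and Abcg1 export cellular cholesterol and phospholipid to lipoprotein particles, and the nuclear liver X receptors (LXR) are known to switch both genes on when sterols accumulate.

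The family rose at its cholesterol exporters and at a potassium channel subunit, and fell at single lipid transporters. Abca1 was 11.1-fold higher with ChREBP-beta, Abcc9 8.28-fold and Abcg1 3.74-fold, whereas Abcd2 was 2.92-fold lower and Abca3 2.03-fold lower. Abcc9 had at most 3 counts in a GFP library and passed the filter on low counts through the ChREBP-beta libraries alone. Of the 50 genes, 29 had enough counts to be tested, 15 were read too rarely and 6 had no count in any library. Among the 29 tested, 15 rose, 6 fell and 8 were not called (edgeR quasi-likelihood test, two-sided, Benjamini-Hochberg adjusted p under 0.05 over all genes tested). These 21 calls were 72.4% of the tested members, while 58.7% of the 12166 genes tested were called. Rises were 51.7% of the tested members against 29.5% of all genes, and falls 20.7% against 29.3%. Called changes of at least 1.5-fold were 27.6% of the tested members against 19.8% of all genes, and of at least 2-fold 20.7% against 11.5%. The median log2 fold change was 0.19 over the tested members and -0.00 over all genes. The libraries of the groups did not overlap for 23 of the 29, or 79.3%, against 63.2% of all genes tested.

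Mlxipl had 222, 215 and 220.0 CPM in ChREBP-beta replicates 1 to 3 and 0.576, 0.719 and 0.501 CPM in GFP replicates 1 to 3, so that the groups carried their labels (CPM are counts scaled to a common library size by the trimmed mean of M values). Library totals ran from 17600221 to 19163800 counts, with both groups across that range. The summed level of 7 myoblast markers was 119 to 126 CPM with ChREBP-beta and 345 to 375 CPM with GFP. All 7 were called lower, Myog being listed at 0 in all 3 ChREBP-beta libraries. Myog and Pax7 were below the 0.549 CPM cutoff of the filter on low counts in every ChREBP-beta library. These genes could be tested only because they were higher with GFP. In bulk samples fewer cells of a type and less RNA per cell cannot be told apart. The marker sums of lung epithelium and of hepatocytes were low in some of the GFP libraries only. The 6 lung epithelial markers summed to 70.8 to 91.9 CPM with ChREBP-beta. In GFP replicates 1 to 3 they summed to 1.78, 136 and 95.2 CPM. The 7 hepatocyte markers summed to at most 26.8 CPM and at least 20.004 CPM with ChREBP-beta. In GFP replicates 1 to 3 they summed to 0.576, 1.11 and 31.8 CPM. The source of these reads was not tested. None of the tested markers in these lists was called (6 of 6 lung and 6 of 7 hepatocyte markers were tested). The 6 fibroblast and fibro-adipogenic markers summed to 875 to 899.7 CPM with ChREBP-beta and to 827 to 861 CPM with GFP, and all 6 were called: Ly6a, Pdgfra, Dpt and Pi16 higher, by up to 4.26-fold for Dpt, and Cd34 and Dcn lower. The part of these marker changes in the ABC values was not tested.

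The promoter of Abca1, the gene with the largest change of the family, is shown first. It holds a CACGTG E-box, the core of the sites that ChREBP and its partner Mlx bind. It also holds a DR4-like repeat, the arrangement that LXR binds. The promoter of Abca3 is shown beside it. The fall of Abca3 was the largest among members with a listed promoter whose start site lies near the gene start in GENCODE M21. Short stretches are shown around the E-box of the other called members that hold one. All are from RefSeq on GRCm38.p6, printed 5′ to 3′ on the strand of the gene, with matches in capitals. That of Abca1 ends at the base before the start site, and those of Abcc4 and Abcf1 are 40 bases around the E-box. The Abca3 stretch was cut to 177 bases, at the base before the GENCODE M21 gene start, which precedes the RefSeq start. The searched bases after that cut are not printed. The Abca1 stretch is chr4:53159896-53160145 (minus strand), that of Abca3 chr17:24351773-24351949 (plus strand), that of Abcc4 chr14:118706402-118706441 (minus strand) and that of Abcf1 chr17:35969829-35969868 (minus strand).
Abca1: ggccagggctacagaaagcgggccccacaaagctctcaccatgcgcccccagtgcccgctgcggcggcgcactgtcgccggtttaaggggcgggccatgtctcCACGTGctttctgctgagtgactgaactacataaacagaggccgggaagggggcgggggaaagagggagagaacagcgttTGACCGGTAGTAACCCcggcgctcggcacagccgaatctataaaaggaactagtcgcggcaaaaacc
Abca3: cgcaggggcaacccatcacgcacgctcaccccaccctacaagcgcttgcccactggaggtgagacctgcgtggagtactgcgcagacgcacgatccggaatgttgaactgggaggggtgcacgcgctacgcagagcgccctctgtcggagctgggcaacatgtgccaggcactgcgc
Abcc4: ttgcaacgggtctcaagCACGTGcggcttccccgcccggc
Abcf1: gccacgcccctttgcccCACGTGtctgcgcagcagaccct

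In Abca1 the E-box begins 147 bases before the start site, and the repeat, a match on the opposite strand, begins 67 bases before it. Motifs were searched on both strands in the 250 bases before each RefSeq start. CACGTG stood in 6.02% of all 32851 listed promoters and in 5 of the 45 promoters listed for the family. These belonged to 5 of the 38 family members with a promoter in the table. Of 22 tested members with a promoter, 4 held it: Abca1, Abcc4 and Abcf1, which rose, and Abca8a, which was not called. The repeat, searched as NGGTNA, 4 bases of any kind and NGGTNA again, stood in 0.621% of all promoters and in that of Abca1 alone among members with a promoter in the table. A strict form of the carbohydrate response element was searched as CACGTG, 5 bases of any kind and CACGTG again, which contains the shorter motif. It was in 0 of the 32851 promoters. With no match in any listed promoter, this search could not tell members from other genes, and looser forms of the element were not searched. These matches describe letters in a window and do not show binding.

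Of the cholesterol and phospholipid exporters, 3 of 3 tested members were called higher, against 29.5% of all genes. The rise was large for Abca1 and Abcg1 and only 1.13-fold for Abca7. Abca1 (ENSMUSG00000015243.4; chromosome 4, 53030787 to 53159895, minus strand, GRCm38), which loads cholesterol and phospholipid onto lipid-poor apolipoprotein A-I, had 28.0, 26.4 and 26.8 CPM in ChREBP-beta replicates 1 to 3 and 2.35, 2.54 and 2.40 CPM in GFP replicates 1 to 3. The groups lay far apart and the libraries of each were close together. The log2 fold change of Abca1 was 3.47 (SE 0.113, edgeR adjusted p = 1.62e-18). Abcg1 (ENSMUSG00000024030.7; chromosome 17, 31057675 to 31117988, plus strand), which passes cholesterol to mature high-density lipoprotein, had 9.63, 9.46 and 11.1 CPM in ChREBP-beta replicates 1 to 3 and 2.83, 2.88 and 2.34 CPM in GFP replicates 1 to 3. All ChREBP-beta libraries were above all GFP libraries, and the log2 fold change of Abcg1 was 1.90 (SE 0.158, edgeR adjusted p = 2.06e-10). Abca7, a paralog of Abca1 that handles phospholipid, had 53.5, 48.7 and 50.6 CPM in ChREBP-beta replicates 1 to 3, against 42.7, 45.9 and 46.7 CPM in GFP replicates 1 to 3. Its log2 fold change was 0.18 (edgeR adjusted p = 0.00972), and the call was lost without ChREBP-beta replicate 1 (adjusted p = 0.0508), without GFP replicate 1 (adjusted p = 0.0588) and with scaling by library size alone (adjusted p = 0.0556). Abcg4, the brain relative of Abcg1, had too few counts to be tested.

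**Figure D1:**
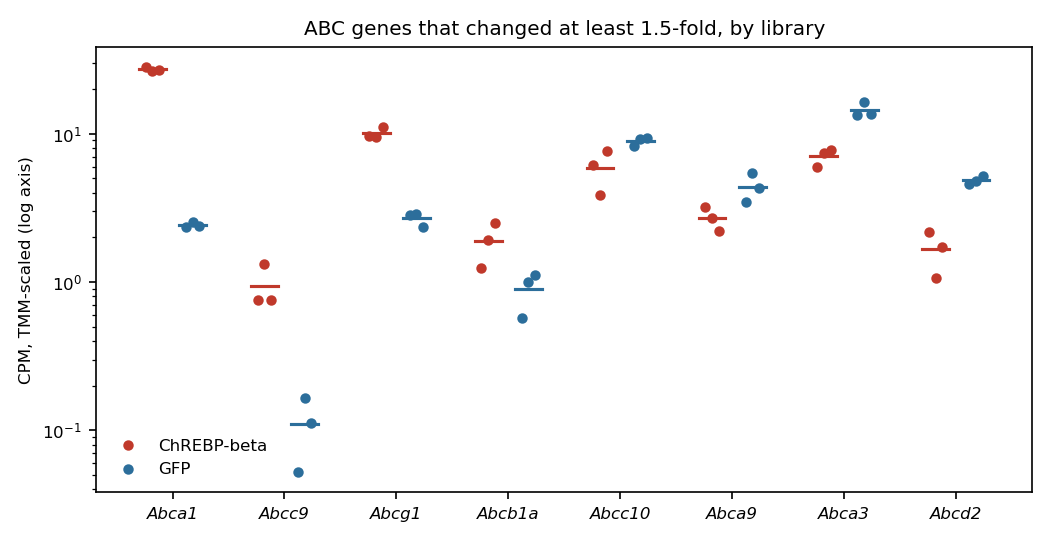
Level of the 8 ABC genes with a called change of at least 1.5-fold, in CPM on a log axis, ordered from the largest rise to the largest fall. Points are the 3 libraries of each group and short lines their means. Abca1 stands at 26.4 to 28.0 CPM with ChREBP-beta and 2.35 to 2.54 CPM with GFP, and Abcd2 at 1.06 to 2.18 CPM with ChREBP-beta and 4.55 to 5.18 CPM with GFP.

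Macrophages are a cell type known for abundant Abca1 and Abcg1. The 6 macrophage markers summed to 15.7 to 17.6 CPM with ChREBP-beta and to 5.34, 14.5 and 17.9 CPM in GFP replicates 1 to 3, mostly from Lyz2, a lysozyme gene also expressed by lung epithelium, and the defining marker Adgre1 was at or below 0.463 CPM in every library. GFP replicate 3, which had the highest sum, held 2.40 CPM of Abca1 and 2.34 CPM of Abcg1. The part of macrophage RNA in either gene was not tested.

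**Figure D2:**
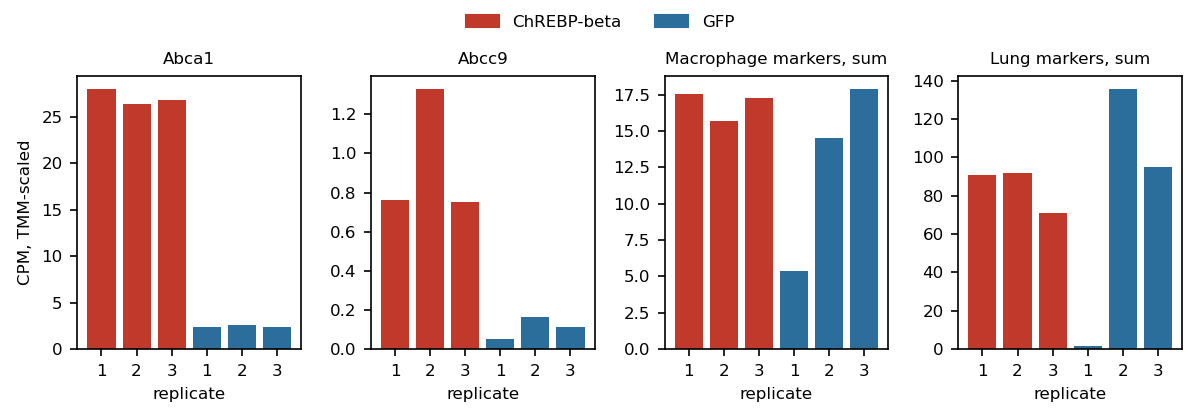
Level in each library, in CPM on linear axes that start at 0, of Abca1, of Abcc9, of the summed macrophage markers and of the summed lung epithelial markers. Abca1 and Abcc9 separate the groups, whereas both marker sums are low in GFP replicate 1 alone, at 5.34 and 1.78 CPM.

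Genes around these exporters were called in both directions. Of 18 tested genes of cholesterol efflux and LXR signalling, 6 rose, 5 fell and 7 were not called, a share called of 61.1%, close to the 58.7% of all genes, with a median log2 fold change of 0.07. The LXR genes were not called: Nr1h2 was at 38.2 ± 3.44 CPM with ChREBP-beta and 36.7 ± 1.79 CPM with GFP (SD, n = 3 each; edgeR adjusted p = 0.477), and Nr1h3 at 1.36 ± 0.445 CPM with ChREBP-beta and 1.42 ± 0.513 CPM with GFP (SD, n = 3 each; edgeR adjusted p = 0.898). Other genes known as LXR targets went different ways. Mylip, which encodes a ubiquitin ligase, rose 1.73-fold, while Lpcat3, a phospholipid-remodelling enzyme, was 1.43-fold lower and Srebf1, the sterol regulatory element binding protein, 1.07-fold lower (edgeR adjusted p = 6.00e-07, 4.06e-11 and 0.0326). Nceh1, which frees stored cholesterol from its esters, was 1.53-fold lower (edgeR adjusted p = 3.68e-07).

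The other subfamily A transporters split. Of 14 genes, 6 were tested: Abca8b rose, Abca3 and Abca9 fell, and Abca2, Abca5 and Abca8a were not called. Abca3 (ENSMUSG00000024130.16; chromosome 17, 24351950 to 24410201, plus strand), which loads phospholipid into the surfactant-storing lamellar bodies of lung epithelium, had 5.98, 7.44 and 7.81 CPM in ChREBP-beta replicates 1 to 3 and 13.4, 16.3 and 13.5 CPM in GFP replicates 1 to 3. The groups did not overlap, and the log2 fold change of Abca3 was -1.02 (SE 0.122, edgeR adjusted p = 1.12e-07). GFP replicate 1, with a lung sum of 1.78 CPM, held 13.4 CPM of Abca3, and GFP replicate 3, with a lung sum of 95.2 CPM, held 13.5 CPM. The part of lung RNA in the Abca3 difference was not tested.

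Abca8b, Abca8a, Abca9, Abca6 and Abca5 lie in that order on chromosome 11, all on the minus strand, between 109932190 and 110337716. The called neighbours moved in opposite directions. Abca9 had 3.21, 2.71 and 2.20 CPM in ChREBP-beta replicates 1 to 3 and 3.45, 5.42 and 4.29 CPM in GFP replicates 1 to 3, with a log2 fold change of -0.69 (SE 0.227, edgeR adjusted p = 0.0117). Abca8b had 7.89, 8.24 and 10.1 CPM in ChREBP-beta replicates 1 to 3 and 6.54, 7.30 and 6.18 CPM in GFP replicates 1 to 3, with a log2 fold change of 0.39 (SE 0.137, edgeR adjusted p = 0.0182). The groups of each lay close together without overlapping, and both calls rested on single libraries. That of Abca9 was lost without ChREBP-beta replicate 3 (adjusted p = 0.0567) or GFP replicate 2 (adjusted p = 0.102), and that of Abca8b without ChREBP-beta replicate 3 (adjusted p = 0.124) or GFP replicate 3 (adjusted p = 0.0581). Abca8a was read at 1.09 ± 0.247 CPM with ChREBP-beta and 0.669 ± 0.116 CPM with GFP (SD, n = 3 each; edgeR adjusted p = 0.127). Abca5 stood at 44.9 ± 2.35 CPM with ChREBP-beta and 48.8 ± 2.91 CPM with GFP (SD, n = 3 each, edgeR adjusted p = 0.0845). It was called lower without GFP replicate 1 (adjusted p = 0.0220), with scaling by library size alone (edgeR adjusted p = 0.0200) and with a filter of mean CPM at least 5 (edgeR adjusted p = 0.0493). Abca2, a lysosomal lipid transporter abundant in myelinating cells, stood at 41.7 ± 1.67 CPM with ChREBP-beta and 38.3 ± 2.41 CPM with GFP (SD, n = 3 each; edgeR adjusted p = 0.0898), and was called higher without GFP replicate 3 (adjusted p = 0.0369).

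The tested multidrug transporters of subfamily B rose and that of subfamily G fell. Abcb1b (ENSMUSG00000028970.9; chromosome 5, 8798147 to 8866315, plus strand), a mouse P-glycoprotein that pumps many hydrophobic drugs out of the cell, had 76.5, 75.9 and 78.2 CPM in ChREBP-beta replicates 1 to 3 and 52.2, 56.6 and 53.1 CPM in GFP replicates 1 to 3. The log2 fold change of Abcb1b was 0.51 (SE 0.0466, edgeR adjusted p = 1.14e-09). Its neighbour and paralog Abcb1a had 1.25, 1.91 and 2.49 CPM in ChREBP-beta replicates 1 to 3. In GFP replicates 1 to 3 Abcb1a had 0.576, 0.996 and 1.11 CPM. The log2 fold change of Abcb1a was 1.07 (SE 0.364, edgeR adjusted p = 0.0145). Both genes hold reads that the authors' counting divided between genes in all 6 libraries, so the small Abcb1a counts in particular are uncertain, and the Abcb1a call was lost without ChREBP-beta replicate 3 (adjusted p = 0.111) or GFP replicate 1 (adjusted p = 0.0756). Abcb1a is known from blood vessels, and 6 endothelial markers summed to 3.06 to 6.91 CPM with ChREBP-beta and to 0.785, 4.70 and 5.24 CPM in GFP replicates 1 to 3. Their part in the Abcb1a value was not tested. Abcg2, an exporter of drugs, urate and porphyrins, had 31.2, 37.0 and 32.7 CPM in ChREBP-beta replicates 1 to 3 and 41.8, 44.5 and 43.3 CPM in GFP replicates 1 to 3. No library overlapped, and the log2 fold change of Abcg2 was -0.36 (SE 0.0646, edgeR adjusted p = 3.98e-05).

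Exporters of conjugated organic anions in subfamily C rose by small steps, with 1 exception. Abcc1, which exports glutathione conjugates and leukotrienes, had 238, 238 and 256 CPM in ChREBP-beta replicates 1 to 3 and 211, 217 and 212 CPM in GFP replicates 1 to 3 (log2 fold change 0.19, edgeR adjusted p = 1.80e-05). Abcc5, an exporter of cyclic nucleotides and other anions, had 96.0, 98.3 and 101 CPM in ChREBP-beta replicates 1 to 3 and 87.6, 87.2 and 82.1 CPM in GFP replicates 1 to 3 (log2 fold change 0.20, edgeR adjusted p = 1.60e-04). Abcc4, which exports cyclic nucleotides and prostaglandins, had 46.2, 44.0 and 43.0 CPM in ChREBP-beta replicates 1 to 3 and 37.8, 38.9 and 36.3 CPM in GFP replicates 1 to 3 (log2 fold change 0.24, edgeR adjusted p = 0.00105). In each of these 3 genes all ChREBP-beta libraries were above all GFP libraries, and the largest of the differences was 1.18-fold. Abcc10, a lipophilic anion exporter, went the other way, with 6.15, 3.88 and 7.69 CPM in ChREBP-beta replicates 1 to 3 and 8.27, 9.24 and 9.36 CPM in GFP replicates 1 to 3. The ChREBP-beta libraries of Abcc10 scattered widely, all below GFP, and its log2 fold change was -0.61 (SE 0.171, edgeR adjusted p = 0.00397). Genes of glutathione conjugation and drug response, a list that also holds regulators such as Nfe2l2, Keap1 and Ahr, were called in both directions, 7 higher and 7 lower of 17 tested (82.4%, against the 58.7% of all genes). Gclc, the catalytic subunit of the rate-limiting step of glutathione synthesis, rose 1.88-fold, while the glutathione transferase genes Gsta4 and Gstm2 were 2.59-fold and 1.72-fold lower (edgeR adjusted p = 2.96e-15, 2.24e-16 and 6.56e-14).

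The genes of both subunits of a potassium channel were read at low level and were higher with ChREBP-beta. Abcc9 (ENSMUSG00000030249.15; chromosome 6, 142587862 to 142702315, minus strand) encodes the sulphonylurea receptor SUR2, which makes the ATP-sensitive potassium (KATP) channel of muscle and vessels respond to the energy state of the cell. It had 14, 25 and 13 counts in ChREBP-beta replicates 1 to 3 and 1, 3 and 2 counts in GFP replicates 1 to 3, or 0.947 ± 0.330 CPM with ChREBP-beta and 0.110 ± 0.0568 CPM with GFP (SD, n = 3 each). All ChREBP-beta libraries were above all GFP libraries, and the log2 fold change of Abcc9 was 3.05 (SE 0.602, edgeR adjusted p = 1.24e-04). Abcc9 was the only tested member that passed the filter through 1 group alone, so that it could pass only because it was higher there. Kcnj8, which encodes the pore Kir6.1 of such channels, lies 16247 bases away on the same chromosome and strand, and had 30, 21 and 16 counts in ChREBP-beta replicates 1 to 3 and 2, 2 and 4 counts in GFP replicates 1 to 3. The log2 fold change of Kcnj8 was 3.02 (SE 0.534, edgeR adjusted p = 3.22e-05). Its GFP libraries were all below the filter cutoff of 0.549 CPM, so Kcnj8 too could be tested only because it was higher with ChREBP-beta. The other pore gene, Kcnj11, had 0 counts in all 6 libraries, and Abcc8, the receptor paired with it in pancreatic beta cells, had 0 counts with ChREBP-beta and 3 with GFP. The lung and hepatocyte sums of GFP replicate 3 were as high as in the ChREBP-beta libraries, and it held 2 counts of Abcc9. Abcc9 is also known from vessels. Endothelial sums were 5.77, 6.91 and 3.06 CPM in ChREBP-beta replicates 1 to 3. In GFP replicates 1 to 3 these sums were 0.785, 4.70 and 5.24 CPM. The part of RNA from other tissues in the Abcc9 counts was not tested.

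**Figure D3:**
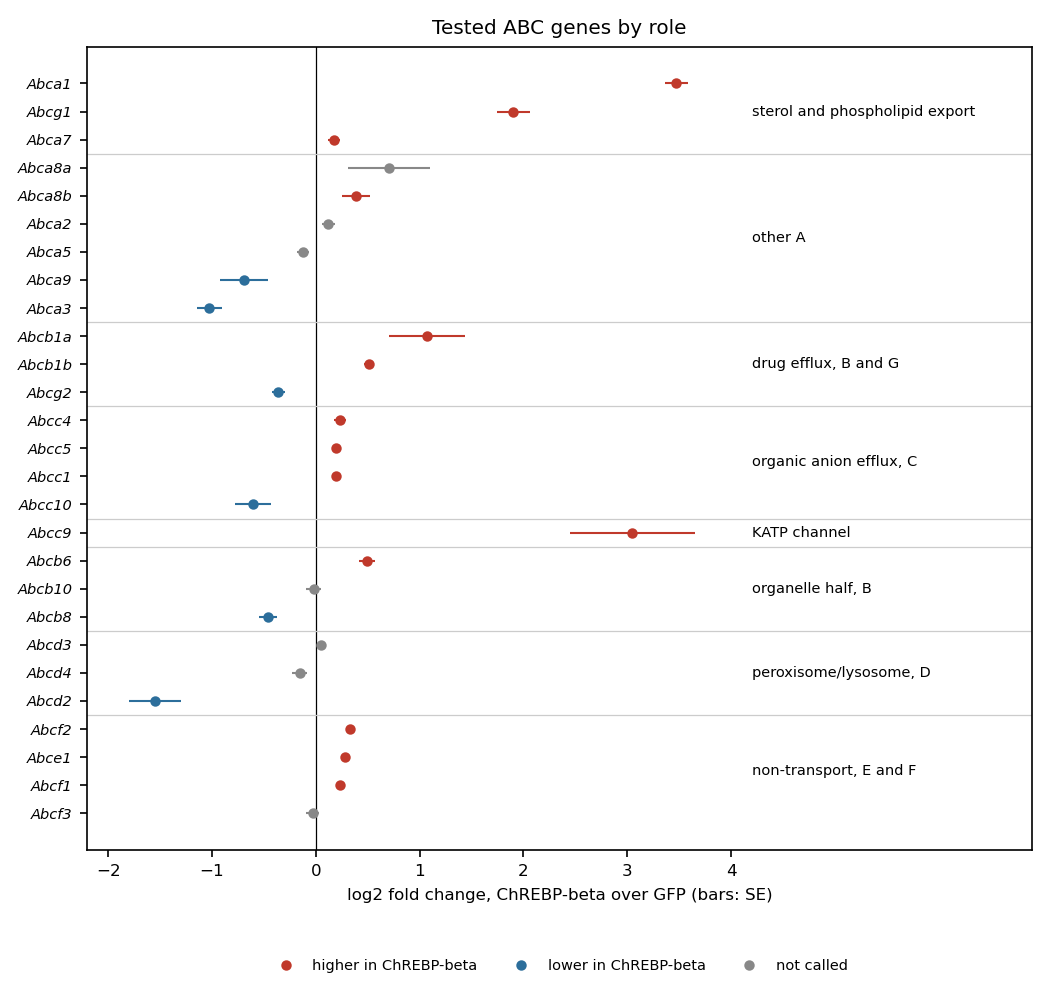
Log2 fold change of the tested ABC genes reported here, ChREBP-beta over GFP, with bars of 1 standard error, grouped by role. The rises reach 3.47 for Abca1 and the falls -1.55 for Abcd2, and most other called changes lie between -0.61 and 0.51.

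Transporters of mitochondria and lysosomes that work as dimers of shorter proteins did not move together. Abcb6, which carries porphyrins, had 24.3, 27.4 and 26.8 CPM in ChREBP-beta replicates 1 to 3 and 17.5, 18.9 and 19.3 CPM in GFP replicates 1 to 3 (log2 fold change 0.50, SE 0.0778, edgeR adjusted p = 6.35e-06). It rose, with no overlap between groups. Abcb8, a subunit of a mitochondrial potassium channel, fell, with 16.2, 16.2 and 15.7 CPM in ChREBP-beta replicates 1 to 3 and 21.1, 20.97 and 24.2 CPM in GFP replicates 1 to 3 (log2 fold change -0.46, SE 0.0846, edgeR adjusted p = 5.05e-05). Abcb10, needed for heme synthesis in red cell precursors, stood at 27.3 ± 0.228 CPM with ChREBP-beta and 27.7 ± 1.70 CPM with GFP (SD, n = 3 each; edgeR adjusted p = 0.805), and the lysosomal peptide transporter gene Abcb9 was too rare to be tested. Of 21 tested genes of heme and iron-sulphur synthesis, 6 rose, 2 fell and 13 were not called, a share called of 38.1% that is below the 58.7% of all genes. Slc25a37, the mitochondrial iron importer, rose 1.44-fold with some of its reads divided between genes, Cpox, a heme synthesis enzyme, rose 1.44-fold, and Slc25a38, a mitochondrial glycine carrier, was 1.57-fold lower (edgeR adjusted p = 1.78e-13, 7.39e-07 and 1.89e-04).

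In subfamily D, which carries fatty acyl chains into peroxisomes and cobalamin out of lysosomes, Abcd2 fell. This peroxisomal importer of very long-chain and polyunsaturated acyl-CoA (ENSMUSG00000055782.9; chromosome 15, 91145871 to 91191799, minus strand) had 40, 20 and 30 counts in ChREBP-beta replicates 1 to 3 and 87, 87 and 93 counts in GFP replicates 1 to 3, or 2.18, 1.06 and 1.73 CPM with ChREBP-beta and 4.55, 4.81 and 5.18 CPM with GFP. The highest ChREBP-beta library was below the lowest GFP library, and the log2 fold change of Abcd2 was -1.55 (SE 0.249, edgeR adjusted p = 9.33e-06). Abcd4, which moves cobalamin out of the lysosome, had 23.1, 24.9 and 22.8 CPM in ChREBP-beta replicates 1 to 3 and 25.4, 26.2 and 27.2 CPM in GFP replicates 1 to 3 (edgeR adjusted p = 0.0675). Its groups did not overlap, and it was called lower without ChREBP-beta replicate 2 (adjusted p = 0.0464). So it was with scaling by library size alone (edgeR adjusted p = 0.0193) and with a filter of mean CPM at least 5 (edgeR adjusted p = 0.0467). Abcd3, the most abundant peroxisomal member per length, stood at 89.8 ± 2.86 CPM with ChREBP-beta and 86.9 ± 2.01 CPM with GFP (SD, n = 3 each; edgeR adjusted p = 0.331).

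Among 15 tested genes of peroxisomal fatty acid handling, 1 rose, 7 fell and 7 were not called, a share called of 53.3% against 58.7% of all genes, and the median log2 fold change was 0.01. Phyh, which starts the oxidation of branched chains, was 1.80-fold lower, Decr2, a reductase for unsaturated chains, 1.79-fold and Crot, which makes acylcarnitine for export, 1.25-fold (edgeR adjusted p = 1.14e-05, 2.83e-04 and 7.45e-05). In the list of lysosomal and cobalamin partners 2 genes rose and 4 fell of 8 tested, or 75% called against 58.7% of all genes. Mmut, the cobalamin-dependent methylmalonyl-CoA mutase, was 2.08-fold lower, and the lysosomal membrane proteins Lamp2 and Lamp1 were 1.26-fold and 1.13-fold lower (edgeR adjusted p = 1.03e-13, 1.32e-10 and 5.67e-06), while Lmbrd1, the partner of Abcd4, was at 50.1 ± 0.630 CPM with ChREBP-beta and 52.7 ± 0.943 CPM with GFP (SD, n = 3 each; edgeR adjusted p = 0.237).

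Of the 4 cassette proteins that do not transport, Abce1, Abcf2 and Abcf1 were the most abundant of the family per length and rose slightly, and Abcf3 was not called. Abce1, which splits ribosomes after termination, had 1054, 1073 and 1071 CPM in ChREBP-beta replicates 1 to 3 and 897, 877 and 849.7 CPM in GFP replicates 1 to 3 (log2 fold change 0.29, SE 0.0268, edgeR adjusted p = 1.74e-09). Abcf2 had 137, 141 and 147 CPM in ChREBP-beta replicates 1 to 3 and 118, 111 and 109 CPM in GFP replicates 1 to 3 (log2 fold change 0.33, edgeR adjusted p = 6.60e-08). Abcf1, which binds initiation factor eIF2, had 156, 160 and 152 CPM in ChREBP-beta replicates 1 to 3 and 127, 132 and 138 CPM in GFP replicates 1 to 3 (log2 fold change 0.23, edgeR adjusted p = 5.96e-06). The replicates of these 3 genes were tight enough that rises of 1.18-fold to 1.26-fold separated the groups. Abcf3 stood at 40.8 ± 3.82 CPM with ChREBP-beta and 41.7 ± 1.40 CPM with GFP (SD, n = 3 each; edgeR adjusted p = 0.712). Of 14 tested genes of ribosome recycling and eIF2 function 11 rose, 0 fell and 3 were not called (78.6%, against 29.5% called higher among all genes). Eif5, the GTPase activator of eIF2, rose 1.52-fold, Etf1, the release factor, 1.31-fold and Eif3a 1.29-fold (edgeR adjusted p = 5.46e-15, 1.38e-11 and 1.52e-11).

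Levels were compared between genes per kilobase of exon (the union of exons in GENCODE M21). Mean levels spanned 0.113 to 178 CPM per kilobase with ChREBP-beta and 0.0131 to 146 CPM per kilobase with GFP over the 29 tested members. Abce1 led at 178 ± 1.76 CPM per kilobase with ChREBP-beta and 146 ± 3.98 with GFP (SD, n = 3 each), followed in both groups by Abcf2, Abcf1, Abcc1 and Abcd3. In GFP cells the intervals of 1 SD around these 5 means did not overlap. Abca1 ranked 20 of the 50 genes with ChREBP-beta, at 2.61 ± 0.0822 CPM per kilobase, and 26 with GFP, at 0.235 ± 0.00966 CPM per kilobase (SD, n = 3 each). Abcg1 ranked 21 with ChREBP-beta, at 1.38 ± 0.124 CPM per kilobase, and 25 with GFP, at 0.367 ± 0.0406 CPM per kilobase (SD, n = 3 each). After its rise Abca1 was thus still below Abca7, which stood at 7.54 ± 0.361 CPM per kilobase with ChREBP-beta (SD, n = 3). The summed level of all 50 genes, not scaled by length, was 2388 ± 24.4 CPM with ChREBP-beta and 2043 ± 20.7 CPM with GFP (SD, n = 3 each), and Abce1 alone made up 44.7% ± 0.294 of it with ChREBP-beta and 42.8% ± 0.921 with GFP (SD, n = 3 each).

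**Figure D4:**
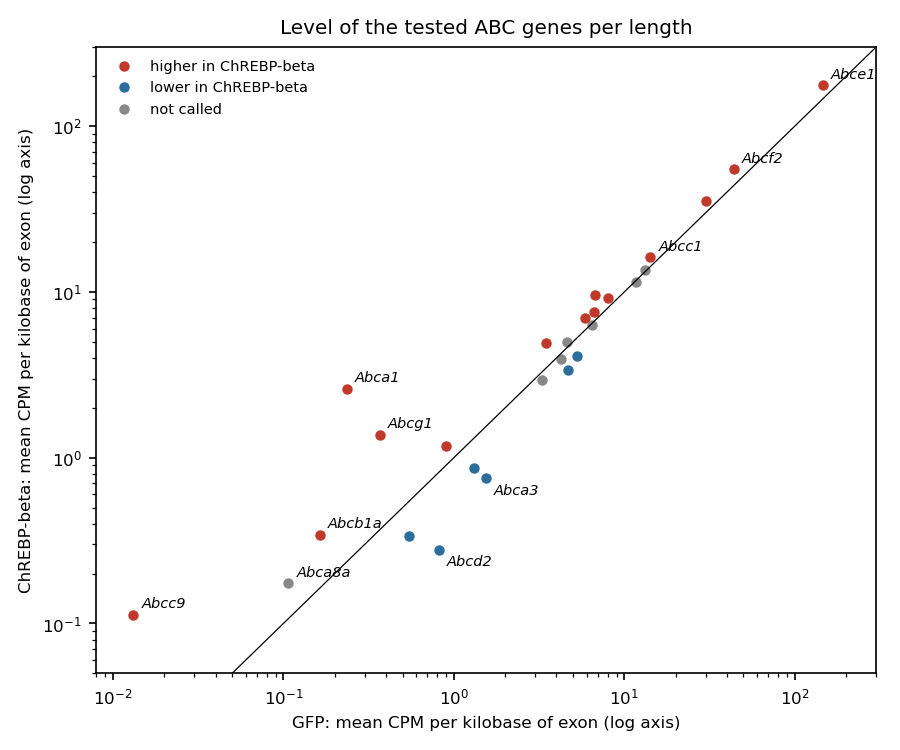
Mean level of the tested ABC genes reported here in CPM per kilobase of exon, ChREBP-beta on the vertical and GFP on the horizontal log axis, with the line of equal level. Most genes lie along the line from about 1 to 178, and Abca1, Abcg1, Abcc9 and Abcd2 stand apart from it.

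The remaining 21 members were at or near the limit of detection. Abca14, Abca15, Abca16, Abca17, Abcb5 and Abcg8 had 0 counts in all 6 libraries. The 15 others held 3 to 51 counts over all libraries and at most 16 in any library: Abca4, Abca6, Abca12, Abca13, Abcb4, Abcb9, Abcb11, Abcc2, Abcc3, Abcc6, Abcc8, Abcc12, Abcg3, Abcg4 and Abcg5. Abca13, a very large lipid transporter, had 5, 15 and 3 counts in ChREBP-beta replicates 1 to 3 and 0 in each GFP library. The ChREBP-beta counts were 7.76-fold higher when the GFP group was set to a floor of 3 counts over its libraries. Abcb11, the bile salt export pump of liver, had 1, 1 and 0 counts in ChREBP-beta replicates 1 to 3 and 3, 6 and 7 counts in GFP replicates 1 to 3, a GFP over ChREBP-beta ratio of 7.91 (exact 95% counting interval 1.86 to 70.9). The interval covers counting error only, and the floor stands for that of the GFP group alone, not of the ChREBP-beta counts. With no filter on low counts edgeR called both, Abca13 higher (adjusted p = 3.31e-04) and Abcb11 lower (adjusted p = 0.0444), and none of the other 13. Of the cassette genes named otherwise, the peptide transporter subunit gene Tap2 was 1.48-fold lower at 14.9 ± 1.19 CPM with ChREBP-beta and 22.0 ± 1.81 CPM with GFP (SD, n = 3 each; edgeR adjusted p = 8.12e-06), and its partner Tap1 stood at 6.09 ± 0.505 CPM with ChREBP-beta and 4.89 ± 0.642 CPM with GFP (SD, n = 3 each; edgeR adjusted p = 0.0957). Cftr, the chloride channel of epithelia, had 4 counts in each group.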

How the data were processed

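The authors deposited estimated counts per gene symbol, not normalized, with a column per library. Of the values 7.74% are not whole (tolerance 1e-09), so some reads were divided between genes. The reads were handled with fastp, TopHat2 2.0.0 and Bowtie2 2.0.0.5, per the submitters' processing notes. These name GRCg6a, which is a chicken build, although the table holds mouse symbols. The counter, annotation and strand setting were not given in the sources used here. Locations and exon lengths come from GENCODE M21 (GRCm38) by symbol (50 of 50 members matched), which may not be the authors' build.

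The 24 repeated symbols were summed and values rounded. edgeR 4.0.16 (R 4.3.3) used filterByExpr (minimum count 10, minimum total 15), TMM and glmQLFTest without covariates. SE was taken as the log2 fold change over the root of the F statistic. The test was also run on counts simulated with the same relative spread between libraries for all genes. The outcome of that run is not reported here. Alternatives were RLE or library-size scaling, other filters, DESeq2 1.42.0, limma-voom 3.58.1, a replicate block and leaving out each library. Replicates differed by more than sampling noise (chi-square per degree of freedom 2.17 to 3.98).

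Members and lists were chosen with earlier results of these data known. Values per library are given for called members of at least 1.5-fold and for up to 3 members per role with the smallest adjusted p, and up to 3 genes per pathway list are named. Nr1h2, Nr1h3, Mylip, Srebf1, Lmbrd1, Abca13, Abcb11 and the motifs were picked with values seen. A few genes counted in the totals are not reported here by name.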

Additional observations from a re-analysis of the deposited data

How the results depend on the processing

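Over the alternatives that keep all libraries, 13 to 16 members were called higher and 6 to 9 lower (15 and 6 in the analysis as reported), and leaving out a library gave 13 to 15 higher and 5 to 8 lower. Over all genes those ranges were 2989 to 3733 higher and 3111 to 4166 lower, and, without a library, 3287 to 3523 higher and 3181 to 3324 lower. The members' median log2 fold change was 0.15 with scaling by library size alone, which moved the median of all genes to -0.05, and 0.18 to 0.21 without a library. Mlxipl ranged from 8.40 to 8.65. Among single members under each alternative, 379 values kept direction and side of the threshold, 9 lost a call and 10 gained one. The 3 that turned direction were never called: Abcf3 was 0.0475 without ChREBP-beta replicate 1 and 0.0039 without GFP replicate 3, and Abcb10 0.0228 without GFP replicate 1 (log2). Without a library Abcf3 ranged from -0.0941 to 0.0475 and Abcb10 from -0.0597 to 0.0228. The cause was not tested. Same-numbered libraries did not deviate together (correlations -0.02, 0.00 and -0.04), and with the replicate block 15 members were called higher and 6 lower. Depth limits the members with few counts, such as Abcc9 with 1 to 25 and Abca8a with 10 to 23 per library.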

Other observations

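Abcb4 and Abcc2, 2 of the transporters of the bile-facing membrane of hepatocytes, had a few counts in the libraries with the higher hepatocyte sums. Abcb4 had 1, 3 and 5 counts in ChREBP-beta replicates 1 to 3 and 0, 0 and 6 counts in GFP replicates 1 to 3. Abcc2 had 4, 2 and 1 counts in ChREBP-beta replicates 1 to 3 and 0, 0 and 4 counts in GFP replicates 1 to 3. The 7 hepatocyte markers summed to 26.8, 20.8 and 20.004 CPM in ChREBP-beta replicates 1 to 3 and to 0.576, 1.11 and 31.8 CPM in GFP replicates 1 to 3. Other transporters of liver did not follow this order. Abcb11, of the same membrane, had 1, 1 and 0 counts in ChREBP-beta replicates 1 to 3. It had 3, 6 and 7 counts in GFP replicates 1 to 3. The sterol exporter gene Abcg5 had 0, 0 and 1 counts in ChREBP-beta replicates 1 to 3. It had 2, 0 and 0 counts in GFP replicates 1 to 3, and Abcg8 had 0 counts in every library. The part of liver RNA in these counts was not tested.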
